A study of Mus musculus with 5 samples.

Results

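Histone lysine demethylases were followed in MutuDC, an established dendritic cell line of the mouse, over a day with the compound Fanchinoline (spelled as in the labels). The 10 genes were taken by symbol from the table of raw counts: Kdm1a, Kdm2a, Kdm2b, Kdm3a, Kdm4a, Kdm4b, Kdm4c, Kdm5a, Kdm5b and Kdm6b, out of 53700 genes, and each symbol had a single row. Cells were sampled after 2, 6, 12 and 24 h with Fanchinoline and in a vehicle control taken as 0 h, with 1 library for each. The series' design text calls the control untreated and speaks of triplicates, so what the 0 h cells received, and whether a library pools cultures, is unsettled. The labels state no dose, the cells are 1 line, and no vehicle library was taken at a later time, so treatment and hours in culture cannot be told apart.

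Methyl groups on histone lysines mark active and silent chromatin, and demethylases take them off again. Kdm1a (LSD1) does so with a flavin cofactor, whereas the other members carry a Jumonji C domain, which needs iron, 2-oxoglutarate and molecular oxygen. In human cell lines KDM3A and KDM4B are known targets of the hypoxia-inducible factor HIF, and in mouse macrophages Kdm6b is known to be induced by inflammatory stimuli.

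Total counts lay between 33568526 and 42854511 per library. Levels are in CPM, that is counts scaled to library size with edgeR's TMM factors, and in TPM where genes are compared per transcript length. Intervals are 95% exact (Clopper-Pearson) and cover counting error of reads only. PCR copies of 1 molecule could not be recognised, so the intervals may be too narrow for the molecules sampled. With 1 library per time there is no replicate spread, and ratios compare libraries. By transcript length the vehicle library differed from every treated one: the median log2 ratio over vehicle of the longest quintile of transcripts exceeded that of the shortest quintile by 0.61 at 2 h and 0.78 at 24 h. Between the 24 h and 2 h libraries the same difference was 0.15. Most members have long transcripts, so the members' ratios over vehicle are also given after removal of the trend with length and GC content (length-adjusted), and whether this length shift comes from the cells or the libraries was not tested. The mitochondrial share of counts was 1.48% to 1.78% with Fanchinoline, against 2.58% in vehicle. Of 10 cDC1 markers 9 were above 10 CPM in every library and the tenth was Itgae, and 3 T cell and 3 neutrophil markers were at 0 throughout. B cell markers summed to 0.188 to 0.447 CPM and fibroblast markers to 0 to 0.366 CPM. Plasmacytoid markers summed to 83.8 to 93.7 CPM. Of these, Bst2 and Tcf4 were above 10 CPM in every library and Siglech was below 1 CPM in every library. Csf1r, a macrophage and monocyte marker, was above 10 CPM in every library.

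The table of RefSeq promoters (build GRCm38.p6) held 6 of the 10 members, matched by symbol: Kdm1a, Kdm2b, Kdm3a, Kdm4a, Kdm4c and Kdm5b. They were searched for the core of the HIF binding site, ACGTG or GCGTG, on both strands, in the 250 bases before the start nearest to the annotated 5′ end. At least 1 copy lay there in 3 of the 6, Kdm2b, Kdm3a and Kdm5b, against 38.6% of all 32851 promoters in the table. The Kdm2b start lay 724 bases from the annotated 5′ end, and its 250 bases fall inside the gene as GENCODE draws it. The stretch before the first annotated exon is shown for 4 members with differing courses below, 5′ to 3′ on the gene's strand, with motif copies in capitals. The Kdm3a stretch is chr6:71632991-71633167 (minus strand), that of Kdm4a chr4:118180044-118180293 (minus), that of Kdm4c chr4:74242247-74242496 (plus) and that of Kdm5b chr1:134559928-134560170 (plus).
Kdm3a: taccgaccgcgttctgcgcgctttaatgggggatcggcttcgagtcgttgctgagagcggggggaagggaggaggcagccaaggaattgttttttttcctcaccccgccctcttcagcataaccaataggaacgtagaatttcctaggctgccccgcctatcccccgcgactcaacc
Kdm4a: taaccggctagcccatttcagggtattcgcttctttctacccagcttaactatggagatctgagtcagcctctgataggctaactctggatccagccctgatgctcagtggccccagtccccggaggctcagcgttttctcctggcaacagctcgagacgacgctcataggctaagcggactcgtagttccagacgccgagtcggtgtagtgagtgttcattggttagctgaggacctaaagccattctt
Kdm4c: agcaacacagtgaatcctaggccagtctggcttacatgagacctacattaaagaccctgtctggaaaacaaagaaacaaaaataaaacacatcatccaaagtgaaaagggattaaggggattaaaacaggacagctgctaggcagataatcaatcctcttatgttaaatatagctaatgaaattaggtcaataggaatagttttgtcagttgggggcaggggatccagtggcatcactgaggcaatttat
Kdm5b: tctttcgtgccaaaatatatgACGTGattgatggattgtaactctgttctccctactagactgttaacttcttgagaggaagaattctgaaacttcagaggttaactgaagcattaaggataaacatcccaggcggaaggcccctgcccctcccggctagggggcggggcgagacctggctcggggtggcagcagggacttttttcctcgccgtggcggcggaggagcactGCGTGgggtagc

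The single copy of Kdm3a lay nearer to the start, inside the first exon as GENCODE draws it and 27 bases before the RefSeq start, at chr6:71632928-71632956 (minus strand).
Kdm3a site: ccgggaggctgtGCGTGtcttgtgagaga

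Of the 10 members 9 passed the minimum of 10 CPM, each in all 5 libraries, and they lay among 8846 genes compared. The exception was Kdm5b (ENSMUSG00000042207, chr1:134560171-134635285, plus strand), which removes methyl groups from lysine K4 of histone H3: it had 3 counts in vehicle, then 1 (2 h), 0 (6 h), 0 (12 h) and 3 (24 h). The limit set by a count of 0 (3 counts) is 0.0707 CPM in the 6 h library and 0.0795 CPM in the 12 h library. None of the 8640 stretches of 75 bases in its longest transcript was found in a transcript of another gene in GENCODE M21. No ratio is given for it. Its family member Kdm5a had 732 to 2105 counts.

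Per transcript length, Kdm1a had the highest level at 24 h, 57.6 TPM, followed by Kdm4a (54.9 TPM), Kdm2a (51.4 TPM), Kdm2b (45.7 TPM), Kdm3a (36.5 TPM), Kdm4b (31.9 TPM), Kdm6b (17.02 TPM), Kdm4c (11.5 TPM) and Kdm5a (10.1 TPM). In vehicle the order was Kdm1a (55.3 TPM), Kdm2b (34.3 TPM), Kdm4a (33.1 TPM), Kdm2a (27.97 TPM), Kdm3a (17.4 TPM), Kdm6b (11.5 TPM), Kdm4b (10.3 TPM), Kdm4c (7.04 TPM) and Kdm5a (3.79 TPM). Kdm4b thus stood above Kdm6b at 24 h and below it in vehicle, and Kdm4a and Kdm2a stood above Kdm2b at 24 h, while in vehicle Kdm2b was above both. Without replicates, whether neighbours in either order differ beyond culture spread is unknown. TPM carries neither TMM scaling nor the length adjustment, so its values are to be read within a library. Kdm1a was at 55.3 TPM in vehicle and 57.6 TPM at 24 h, but at 90.2 and 77.9 CPM.

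**Figure D1:**
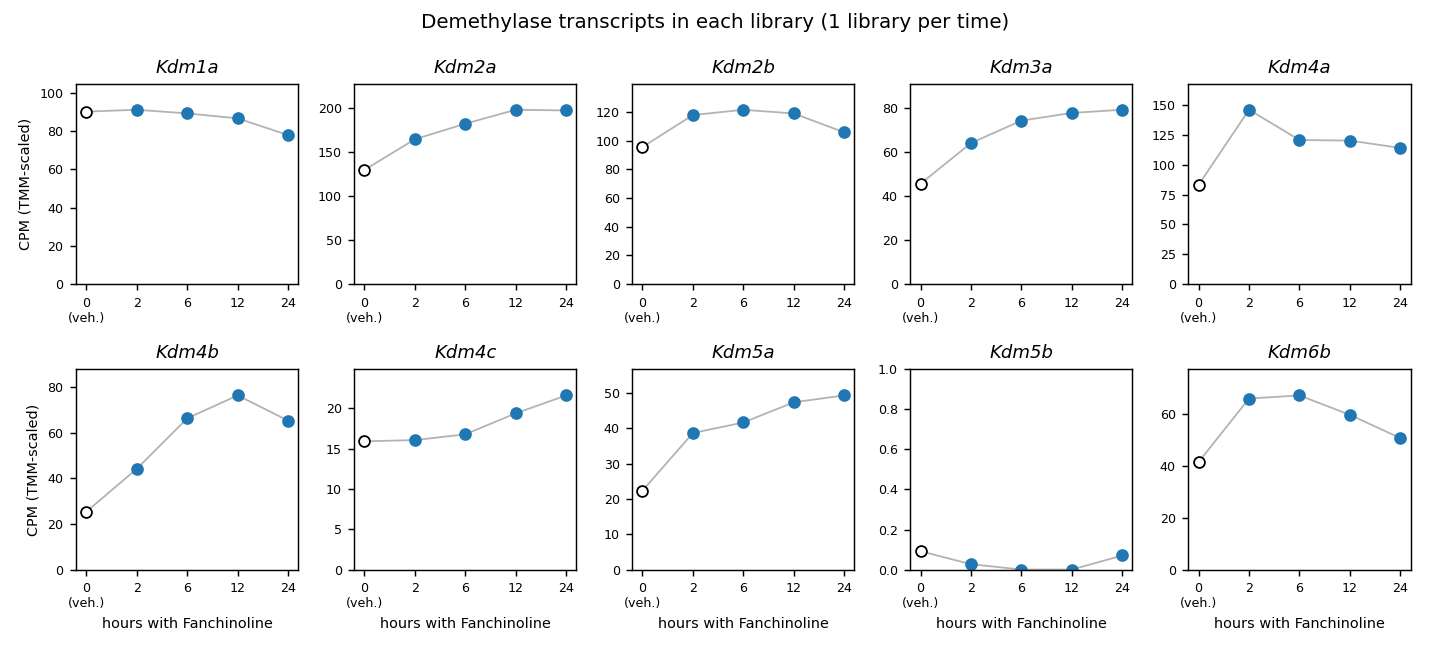
TMM-scaled CPM (y axis, from 0, own scale per panel) of each member against hours with Fanchinoline (x axis, times evenly spaced), 1 library per point, vehicle as the open point. Kdm4b is highest at 12 h, at 76.4 CPM, Kdm4a is highest at 2 h, Kdm1a is nearly level and Kdm5b stays near 0.

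A gene was called if its log2 ratio reached 1 in size and its interval left out 0. Levels are averages over bulk cells, in which fewer expressing cells and less RNA per cell cannot be told apart. Kdm4b was called higher than vehicle at 6, 12 and 24 h, and Kdm5a at 12 and 24 h. No member was called lower at any time. At 2 h 0 of the 9 members were called higher (0.904% of all genes compared) and 0 lower (0.430%). The 6 h library had 1 member called higher (1.57% of all genes), the 12 h library 2 (2.33%) and the 24 h library 2 (2.86%), while lower genes made up 0.373%, 0.746% and 1.23% of all genes. Length-adjusted, Kdm4b alone was called, at 6, 12 and 24 h, against 0.690%, 1.34% and 1.69% of all genes higher and 0.317%, 0.543% and 0.939% lower. At 2 h, where 0.441% of genes were higher and 0.238% lower after this adjustment, 0 members were called. All 4 comparisons use the same vehicle library, so they are not independent of each other.

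The median log2 ratio of the 9 members was 0.49 (2 h), 0.54 (6 h), 0.53 (12 h) and 0.46 (24 h). Over all genes compared it was 0.027 (2 h), 0.043 (6 h), 0.022 (12 h) and -0.0002 (24 h). Length-adjusted, the members' median was 0.13 (2 h), 0.14 (6 h), 0.19 (12 h) and 0.17 (24 h), beside 0.029, 0.039, 0.013 and -0.023 over all genes. At a lower size of 0.5, 4 members were higher at 2 h (10.5% of genes), 5 at 6 h (13.0%), 6 at 12 h (14.4%) and 4 at 24 h (15.3%), and 0 were lower by that size at any time (5.97%, 6.16%, 8.52% and 12.2% of genes). Length-adjusted these counts were 0 (3.15% of genes), 2 (4.56%), 3 (6.24%) and 2 (7.56%), the 2 at 24 h being Kdm4b and Kdm3a, again with 0 lower (2.54%, 2.85%, 5.68% and 8.92%). These counts depend on the length measure. With all annotated exons, a choice made after the data were seen, Kdm4a (0.62), Kdm4b (0.63) and Kdm5a (0.59) passed 0.5 at 2 h. Kdm5a also passed it at 6 h (0.61) and 24 h (0.69). The share of all genes was not computed for that adjustment.

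**Figure D2:**
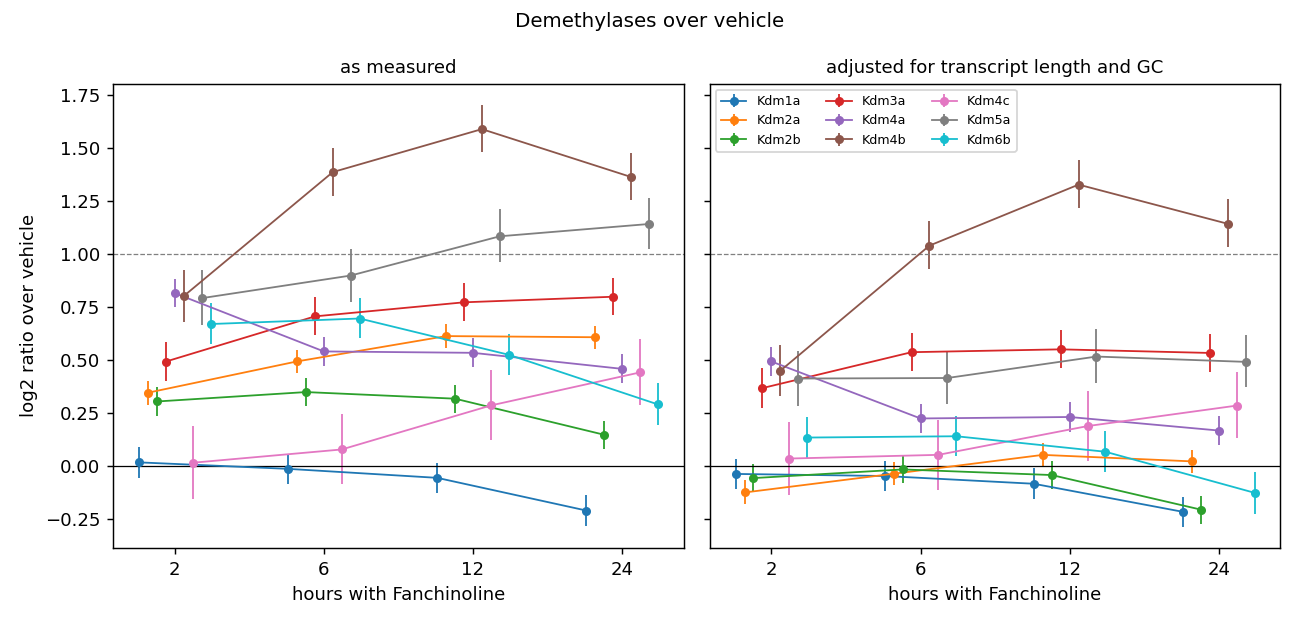
Log2 ratio over vehicle (y axis) of 9 members against hours with Fanchinoline (x axis), as measured (left) and adjusted for transcript length and GC content (right). Bars are 95% counting intervals, and the dashed line is the size of 1 used for calls. Kdm4b lies above the line from 6 h in both panels, while Kdm5a lies above it at 12 and 24 h only on the left.

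Positions of the genes are those of GENCODE M21 on GRCm38. The Kdm4 enzymes remove methyl groups from H3K9 and H3K36, and their 3 genes took different courses. Kdm4b (ENSMUSG00000024201, chr17:56326062-56402870, plus strand) had 25.4 CPM in vehicle, then 44.2 (2 h), 66.3 (6 h), 76.4 (12 h) and 65.3 (24 h). It stood above vehicle in each treated library, was highest at 12 h, and at 24 h was lower than at 12 h. Its log2 ratio over vehicle started at 0.80 in the 2 h library (interval 0.68 to 0.92). It was 1.39 (1.275 to 1.501) in the 6 h library and 1.59 (1.48 to 1.70), a 3.01-fold level, in the 12 h library. The 24 h library was at 1.36 (1.25 to 1.48). Length-adjusted these were 0.45, 1.04, 1.33 and 1.14. The 12 h ratio lay above that of 99.6% of genes compared, and the length-adjusted one above 99.4%.

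Kdm4a (ENSMUSG00000033326, chr4:118136957-118180043, minus strand) had 83.2 CPM in vehicle, then 146 (2 h), 121 (6 h), 120 (12 h) and 114 (24 h). It was highest in the first treated library and lower in each of the 3 later ones. Its log2 ratio over vehicle was 0.81 (0.75 to 0.88) at 2 h, above 97.7% of genes compared, and 0.46 (0.39 to 0.53) at 24 h. Length-adjusted these were 0.49 and 0.17. Kdm4c (ENSMUSG00000028397, chr4:74242497-74405860, plus strand), the least abundant of the 3, had 15.9 CPM in vehicle, then 16.1 (2 h), 16.8 (6 h), 19.4 (12 h) and 21.6 (24 h). It was near vehicle through 6 h and highest at 24 h, where its log2 ratio was 0.44 (0.29 to 0.60; length-adjusted 0.28).

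Counts within the family do not depend on library scaling. Kdm4b made up 20.4% of Kdm4a, Kdm4b and Kdm4c counts in vehicle (exact binomial interval 19.1% to 21.6%) and 21.4% at 2 h (20.5% to 22.3%). From 6 h it made up 32.5% (31.5% to 33.5%), then 35.3% at 12 h (34.3% to 36.4%) and 32.5% at 24 h (31.5% to 33.5%). Its share was about the same at 2 h as in vehicle and larger from 6 h, so Kdm4a and Kdm4b stood at similar multiples of vehicle at 2 h and apart afterwards. Kdm4a took 70.8% at 2 h and 55.7% at 12 h, and Kdm4c took 7.78% at 2 h, against 12.8% in vehicle. The longest transcripts of Kdm4a, Kdm4b and Kdm4c are close in length, at 4663, 4577 and 4196 bases, with GC contents of 53.6%, 58.7% and 43.7%. None of their 75-base stretches is shared with a transcript of another gene.

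**Figure D3:**
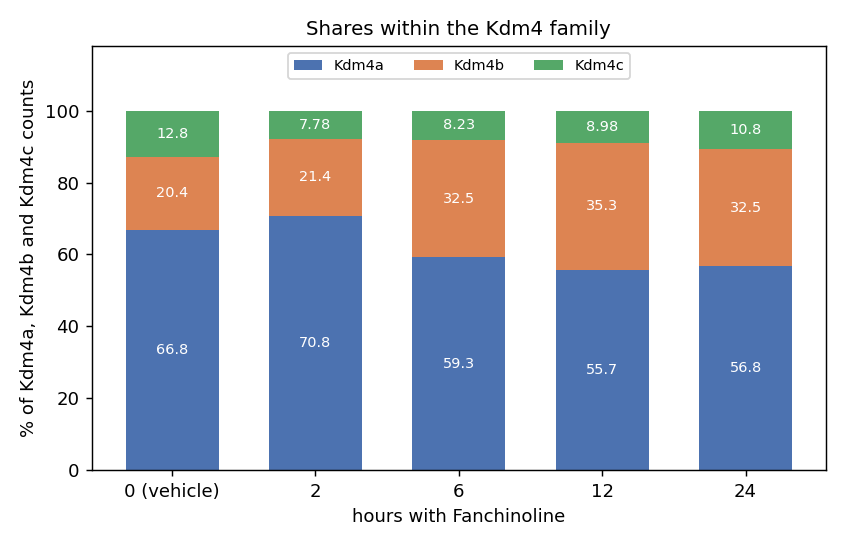
Share of Kdm4a, Kdm4b and Kdm4c in their summed counts (y axis, %) in each library (x axis, hours with Fanchinoline), 1 library per bar. The Kdm4b share is 20.4% in vehicle, 21.4% at 2 h and 32.5% to 35.3% from 6 h.

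Kdm3a (ENSMUSG00000053470, chr6:71588972-71632990, minus strand) removes mono- and dimethyl marks from H3K9. It had 45.5 CPM in vehicle, then 64.0 (2 h), 74.2 (6 h), 77.7 (12 h) and 79.1 (24 h). The steps up to 6 h exceeded counting error, while those for 12 h over 6 h (-0.0066 to 0.14) and 24 h over 12 h (-0.046 to 0.098) did not. Its log2 ratio over vehicle was 0.49 (0.40 to 0.59) in the 2 h library, 0.70 (0.62 to 0.80) in the 6 h library, 0.77 (0.68 to 0.86) in the 12 h library and 0.80 (0.71 to 0.89) in the 24 h library. It did not reach the size of a call. Length-adjusted the ratios were 0.37, 0.54, 0.55 and 0.53, and the 6 h one lay above 96.2% of genes.

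Of the genes acting on H3K4, Kdm5a (ENSMUSG00000030180, chr6:120364124-120444574, plus strand), which removes di- and trimethyl marks, had 22.3 CPM in vehicle, then 38.7 (2 h), 41.6 (6 h), 47.4 (12 h) and 49.3 (24 h). Each step exceeded counting error except the last, 24 h over 12 h (interval -0.033 to 0.15). Its log2 ratio was 0.79 (0.66 to 0.92) at 2 h and 0.90 (0.77 to 1.02) at 6 h. It was 1.08 (0.96 to 1.21) at 12 h and 1.14 (1.02 to 1.27) at 24 h, a 2.21-fold level. Its longest transcript, 10944 bases, is longer than those of 98.4% of genes compared, and the length-adjusted ratios were 0.41, 0.41, 0.52 and 0.49, of which none was called. Of its 75-base stretches 1.63% are shared with Ccdc77, which overlaps it on the other strand. Within the pair Kdm5a and Kdm5c, Kdm5a took 27.2% of counts at 24 h (26.2% to 28.2%), against 19.4% in vehicle (18.2% to 20.7%).

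Kdm1a (ENSMUSG00000036940, chr4:136550540-136602723, minus strand), which removes mono- and dimethyl marks from the same lysine, has a shorter transcript (3028 bases) and the narrowest range of the 9 members, 0.23 on the log2 scale. It had 90.2 CPM in vehicle, then 91.2 (2 h), 89.3 (6 h), 86.7 (12 h) and 77.9 (24 h). The 2, 6 and 12 h libraries lay within counting error of vehicle, and the 24 h library was lowest, at a log2 ratio of -0.21 (-0.28 to -0.14; length-adjusted -0.22).

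**Figure D4:**
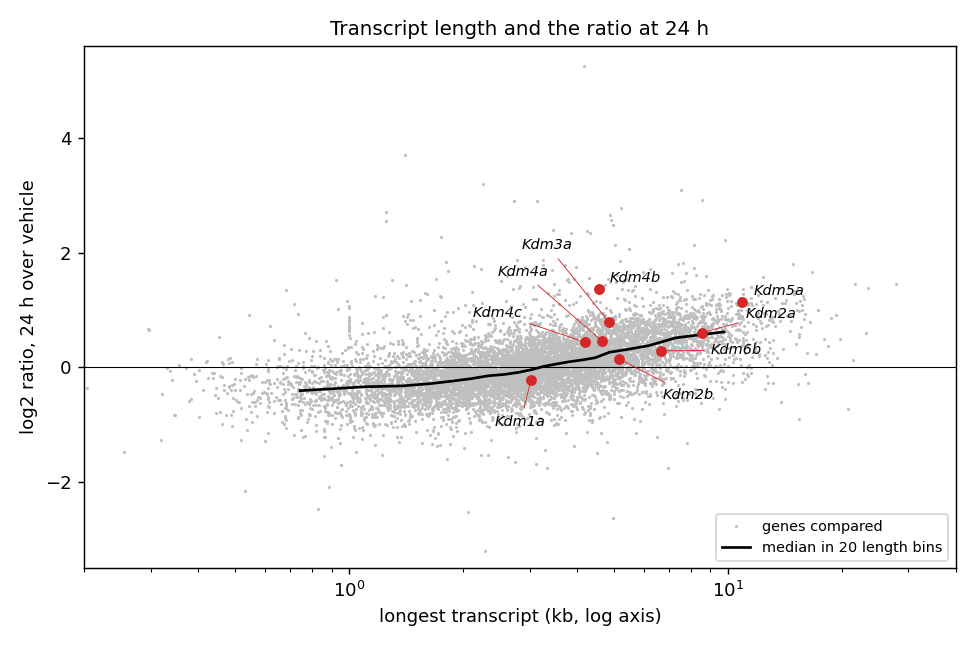
Log2 ratio of 24 h over vehicle (y axis) against the longest transcript (x axis, kb, log axis) for genes compared (grey), with the median in 20 length bins (line) and 9 members (red). Longer transcripts lie higher. Kdm4b, Kdm3a and Kdm5a lie above the line or its end, while Kdm2a lies on it and Kdm2b and Kdm6b below it. Outside the axes lie 10 genes.

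Kdm2a and Kdm2b, which remove H3K36 marks and bind unmethylated CpG sites, have long transcripts too. Kdm2a (ENSMUSG00000054611, chr19:4314419-4398285, minus strand) had 129 CPM in vehicle, then 164 (2 h), 182 (6 h), 198 (12 h) and 197 (24 h), with a log2 ratio of 0.61 (0.55 to 0.66) at 24 h. Length-adjusted its ratios were -0.13 (2 h), -0.038 (6 h), 0.051 (12 h) and 0.020 (24 h). The first lay at the 25.4 percentile of genes and the last at the 54.9 percentile. Kdm2b (ENSMUSG00000029475, chr5:122870665-122989823, minus strand) had 95.6 CPM in vehicle, then 117.9 (2 h), 122 (6 h), 119 (12 h) and 106 (24 h), with a log2 ratio of 0.35 (0.28 to 0.41) at 6 h and 0.15 (0.08 to 0.21) at 24 h. Length-adjusted, Kdm2b was at -0.018 at 6 h and -0.21 at 24 h. Reads of Kdm2b are uncertain, since 22.4% of its 75-base stretches also occur in Rnf34, Gm44574 or Gm12397. Of the counts of this pair, Kdm2a took 65.05% at 24 h (64.2% to 65.9%), against 57.5% in vehicle (56.3% to 58.6%).

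Kdm6b (ENSMUSG00000018476, chr11:69398508-69413675, minus strand), which removes the silencing mark on H3K27, was high early. It had 41.4 CPM in vehicle, then 65.8 (2 h), 67.0 (6 h), 59.5 (12 h) and 50.6 (24 h). All treated libraries were above vehicle, with the 24 h library nearest to it. Its log2 ratio was 0.67 (0.57 to 0.77) at 2 h, 0.69 (0.60 to 0.79) at 6 h and 0.29 (0.19 to 0.39) at 24 h. Length-adjusted these were 0.13, 0.14 and -0.13, so that the sign at 24 h turned. It did not turn with all annotated exons in place of the longest transcript, an adjustment chosen after the data were seen. The Kdm6b ratios were then 0.37 (2 h), 0.41 (6 h) and 0.16 (24 h, interval 0.06 to 0.26). Of its 75-base stretches 1.23% are shared with Kdm6bos, which lies on the other strand. Of the counts of Kdm6a and Kdm6b, Kdm6b took 72.6% in vehicle (70.5% to 74.6%), 75.5% at 2 h (74.0% to 77.0%) and 65.1% at 24 h (63.5% to 66.7%). Its share was thus above vehicle early and below it late, but shares are not length-adjusted. Adjusted by the longest transcript, the 2 h log2 ratio was lower for Kdm6b (0.13) than for Kdm6a (0.33). At 24 h it was lower as well (-0.13, against 0.43).

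Between the treated libraries, where the length shift was smaller, the members divided. At 24 h over 2 h, Kdm4b (0.56, interval 0.47 to 0.65), Kdm4c (0.43, 0.28 to 0.58), Kdm5a (0.35, 0.25 to 0.45), Kdm3a (0.31, 0.23 to 0.38) and Kdm2a (0.26, 0.21 to 0.31) had higher log2 ratios than 0 beyond counting error. Kdm6b (-0.38, -0.46 to -0.30), Kdm4a (-0.36, -0.41 to -0.30), Kdm1a (-0.23, -0.30 to -0.16) and Kdm2b (-0.16, -0.22 to -0.10) lay below 0. None was called at the size of 1, where 0.859% of genes were higher and 0.690% lower. Kdm4b alone passed the size of 0.5, where 6.04% of genes were higher and 6.00% lower. Length-adjusted, all 9 kept their sign and Kdm4b, at 0.69, was again the only member past 0.5 (4.19% of genes higher, 5.29% lower), with none past 1 (1.02% and 0.577%). Adjustment lowered Kdm4c to 0.26, Kdm3a to 0.17, Kdm2a to 0.15 and Kdm5a to 0.094, and the interval of Kdm5a (-0.003 to 0.19) reached 0. By steps, most of the Kdm4b difference lay between 2 and 6 h (0.59), followed by 0.20 between 6 and 12 h and -0.23 between 12 and 24 h. The Kdm4a difference likewise lay between 2 and 6 h (-0.28, -0.33 to -0.22), and that of Kdm6b after 6 h, with -0.17 between 6 and 12 h and -0.23 between 12 and 24 h.

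**Figure D5:**
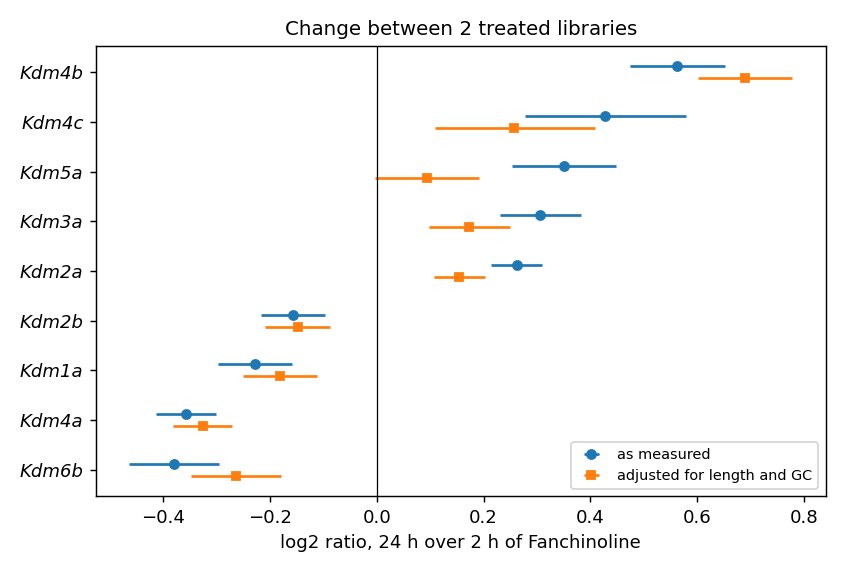
Log2 ratio of 24 h over 2 h of Fanchinoline (x axis) for 9 members (y axis), as measured (circles) and adjusted for transcript length and GC content (squares), with 95% counting intervals. Kdm4b, Kdm4c, Kdm5a, Kdm3a and Kdm2a lie above 0, and Kdm2b, Kdm1a, Kdm4a and Kdm6b below.

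With 1 library per time, the course could be tested only as a slope over libraries. In edgeR's quasi-likelihood test on log2(hours + 1), with Benjamini-Hochberg adjustment over 13915 genes, 4 members rose, against 5.15% of all genes rising, and 0 members fell, against 3.86%. These were Kdm4b (slope 0.33 per unit, adjusted p = 0.0286), Kdm5a (0.23, adjusted p = 0.0283), Kdm3a (0.17, adjusted p = 0.0301) and Kdm2a (0.13, adjusted p = 0.0351). Kdm4c had a slope of 0.10 (adjusted p = 0.105), and the other 4 tested members had adjusted p-values of 0.373 to 0.631. The error in this test is the scatter about a line, on 3 residual degrees of freedom, moderated with that of all genes tested. It holds no replicate spread, and the calls depend on the setting. With a slope on hours (0 of 13915 genes; 1206 rising and 1522 falling at an unadjusted p under 0.05) or with no filter on low counts (0 of 24170 genes; 2408 and 2435), 0 members passed in edgeR's test. Without the 12 h library 0 members passed (0 of 13824 genes in edgeR's test, with 1664 rising and 1151 falling at an unadjusted p under 0.05), and without the 6 h library (1.62% of genes rising, 0.999% falling) or the 24 h library (0.278% and 0.0220%) Kdm4b alone passed. With length and GC offsets (4.65% of genes rising, 5.11% falling) Kdm4b (adjusted p = 0.0105) and Kdm3a (adjusted p = 0.0423) passed edgeR's test. In the 4 treated libraries alone, where 8.01% of genes rose and 7.67% fell, the same edgeR test with 2 residual degrees of freedom gave adjusted p-values of 0.0267 to 0.0493 for 6 members, with Kdm5a, Kdm4c, Kdm3a and Kdm2a rising and Kdm4a (slope -0.11) and Kdm6b (-0.12) falling, while Kdm4b, which was lower at 24 h than at 12 h, had an adjusted p of 0.0702.

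Kdm4b had the widest range of the 9 members over the libraries, 1.59 on the log2 scale. The 5 genes with 4 log2 ratios over vehicle nearest to it, of 8845, were Lpin1, a phosphatidate phosphatase of lipid synthesis (root mean square difference 0.079), Ddit4, an inhibitor of mTORC1 signalling (0.11), the fatty acid desaturase Scd2 (0.11), the sterol enzyme Lss (0.12) and the kinesin Kif13b (0.14). Their log2 ratios at 12 h were 1.65, 1.43, 1.49, 1.64 and 1.47. This likeness is a description over 4 ratios that share 1 vehicle library.

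Among other genes of the Jumonji C and LSD families none of the 16 measured was called in any comparison. Of all genes compared, 0.859% to 2.86% were called higher and 0.373% to 1.23% lower, so this does not set these families apart. Of 20 other Jumonji C and LSD family genes 16 passed the minimum, with a median log2 ratio of 0.34 at 24 h, or 0.0081 length-adjusted. The largest at 24 h were Hif1an, the asparaginyl hydroxylase of HIF (0.97; length-adjusted 0.52), Jmjd1c (0.95; 0.40), Kdm6a, the H3K27 demethylase related to Kdm6b (0.80; 0.43), and Kdm3b (0.67; 0.19). In the slope test 2 of 17, Jmjd1c and Kdm6a, rose (5.15% of all genes) and 0 fell (3.86%). Slope calls of this and the next lists have the limits given above.

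Among 30 genes listed as histone lysine methyltransferases, the median log2 ratio was 0.26 at 24 h and -0.11 length-adjusted. Kmt2c (1.28), which methylates H3K4 at enhancers and was called from 6 h on, and Kmt2e (1.03) were called higher at 24 h, and length-adjusted, at 0.50 and 0.54, neither was. The next by size were Kmt5b (0.81; length-adjusted 0.40), an H4K20 methyltransferase, and Kmt2a (0.80), whose sign turned on adjustment (-0.033). Over all genes compared, 1.57% were called higher at 6 h, 2.33% at 12 h and 2.86% at 24 h. In the slope test 4 of 30 rose (5.15% of all genes) and 1, Kmt5a, fell (3.86%). Of 28 complex partners 25 passed the minimum, with a median of 0.047 at 24 h (length-adjusted -0.032). Rcor1, the CoREST scaffold that holds Kdm1a, was at 0.94 at 24 h (length-adjusted 0.56), while Hmg20b of the same complex was at -0.84 (-0.45). Dpy30, a subunit of H3K4 methyltransferase complexes, was at -0.83 (length-adjusted -0.42) and Pcgf1, the Polycomb partner of Kdm2b, at -0.79 (-0.45). Pcgf1 was called lower at 12 h (-1.07; length-adjusted -0.76, not called), when 0.746% of genes were lower. In the slope test Rcor1 rose (5.15% of all genes) and Hmg20b, Dpy30 and Pcgf1 fell (3.86%), of 26 partners tested.

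DNA and RNA demethylases also use iron, oxygen and 2-oxoglutarate. Of the 6 listed, 5 passed the minimum, with a median of 0.89 at 24 h (length-adjusted 0.17). Tet2, a DNA demethylase, was called higher at 24 h (27.6 CPM, against 11.5 CPM in vehicle; log2 ratio 1.26, length-adjusted 0.67) and Alkbh5, an RNA demethylase, as well (174 CPM, against 83.3 CPM in vehicle; 1.06, length-adjusted 0.67). Tet3, also a DNA demethylase, was at 0.89 at 24 h (length-adjusted 0.17), after being called higher at 2 h (1.08) and 6 h (1.10), and Alkbh1 was at -0.76 (length-adjusted -0.88). Over all genes compared, 0.904% were called higher at 2 h, 1.57% at 6 h and 2.86% at 24 h. In the slope test Tet2 and Alkbh5 rose (5.15% of all genes) and Alkbh1 fell (3.86%), of 5 tested. Length-adjusted, none of the 5 was called in any comparison, against 0.441% to 1.69% of all genes higher and 0.238% to 0.939% lower. Of 12 hypoxia-inducible genes, a list chosen with their values in these data known, 9 passed the minimum, but Ak4, P4ha2 and Ankrd37 passed only in treated libraries, so no count or median over the list is given. The other 6 were above 10 CPM in every library, with log2 ratios at 24 h of 2.27 for Bnip3, 1.86 for Slc2a1, 1.85 for Pdk1, 1.34 for Egln1, 1.11 for Ndrg1 and 0.30 for P4ha1. Length-adjusted these were 2.54, 1.8, 1.54, 1.23, 1.12 and 0.15. Egln3, Vegfa and Adm stayed below 10 CPM. The Kdm4b log2 ratio at 24 h was 1.36 (length-adjusted 1.14) and that of Kdm3a 0.80 (0.53). At 2 h the ratios were -0.017 for Bnip3, 0.85 for Slc2a1, 0.35 for Pdk1, 0.19 for Egln1, 0.25 for Ndrg1 and -0.045 for P4ha1. Kdm4b was then at 0.80 and Kdm3a at 0.49. Whether HIF acts on either member was not tested.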

How the data were processed

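The 5 libraries of MutuDC cells were made from poly-A RNA. The authors deposited raw counts per gene. Per the submitters' processing notes, Trim Galore and HISAT2 were used with the mouse build GRCm38. The sources used here name no counting program, annotation or strand setting. The TruSeq kit named in the labels' protocols does not mark strand, so reads of overlapping genes on opposite strands cannot be told apart.

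TMM factors from edgeR 4.0.16 (with limma 3.58.1 in R 4.3.3) ran from 0.977 to 1.05, and log2 CPM used a prior count of 2. A gene was compared if any library held 10 CPM or more of it, which is 328 to 427 counts. Ratios were adjusted by subtracting a robust fit of the log2 ratio, across all genes compared, on splines with 4 degrees of freedom of log2 transcript length and GC content (longest basic transcript, GENCODE M21 on GRCm38; 99.88% of compared genes had values). TPM used the same lengths. The slope test used glmQLFit after filterByExpr and a threshold of 0.05 on Benjamini-Hochberg adjusted p-values. The size rule, the slope test and the adjustment were each tested on simulated counts. These had straight slopes or a set length shift and a fixed spread, so they do not measure performance under the unknown culture spread here. DESeq2 1.42.0 served for an alternative scaling and slope test.

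Members and lists were chosen with earlier results of these data known. Named genes were the members, the up to 4 largest 24 h ratios of each list and any called gene, and the 5 genes nearest in course to the widest-ranging member. All hypoxia genes on the list are named. Adjustment by all annotated exons in place of the longest transcript was chosen after the data were seen. The summed level of the macrophage and monocyte markers is not reported here.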

Additional observations from a re-analysis of the deposited data

How the results depend on the processing

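The counts of called members were the same under DESeq2 size factors, upper-quartile factors, a prior count of 0.5, no filter on low counts and summed rows of a symbol. A lower size of 0.5 gave 4 members at 2 h (10.5% of genes higher), 5 at 6 h (13.0%), 6 at 12 h (14.4%) and 4 at 24 h over vehicle (15.3%). It gave 1 for 24 h over 2 h (6.04%), and all of these were higher. Length and GC adjustment, by the longest transcript or all exons, gave 1 at 12 h and 1 at 24 h in place of 2 each, the cause being the smaller Kdm5a ratio. No scaling moved the median of all genes by more than 0.07.

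Members past the slope threshold were 4 with upper-quartile factors (5.04% of genes rising, 5.52% falling) and with DESeq2 (11.3% and 9.56%), 6 in the 4 treated libraries (8.01% and 7.67%), 2 with length and GC offsets (4.65% and 5.11%), and 0 with a slope on hours or with no filter. Leaving out each library gave 0 to 6, among them 4 without the 2 h library (9.31% of genes rising, 5.66% falling). In edgeR's test 0 of 13915 genes passed with a slope on hours (1206 rising and 1522 falling at an unadjusted p under 0.05), 0 of 24170 with no filter (2408 and 2435) and 0 of 13824 without the 12 h library (1664 and 1151); the cause was not tested. Slopes that turned were those of Kdm2b (-0.043 in the treated libraries, -0.033 with offsets), Kdm4a (-0.11 in the treated libraries) and Kdm6b (-0.12 in the treated libraries, -0.022 with offsets, -0.0031 on hours). Over the libraries left out, the slope was -0.043 to 0.087 for Kdm2b, -0.11 to 0.12 for Kdm4a and -0.12 to 0.14 for Kdm6b.

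No paired analysis was possible because each time point has 1 library. With 328 to 427 counts at 10 CPM, counting error is small, and the unmeasured spread between cultures limits these ratios.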
